A study of Mus musculus with 2 samples.

Results

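Cyp21a1 encodes the steroid 21-hydroxylase and lies in a stretch of mouse chromosome 17 where whole genes have been duplicated, with the complement genes C4a and C4b, the tenascin X gene Tnxb and Stk19 close by. These 5 genes were taken by their names in the deposited tables, out of 17707 annotated genes with reads, together with every transcript model that runs from one of them into a neighbour. They held 287 of the 130376 transcript models in replicate 1 and 295 of the 118745 models in replicate 2. A model is 1 set of exons to which reads were assigned, and an annotated gene can have many. The data are long reads, each read standing for 1 cDNA molecule, from the adrenal gland of female B6CASTF1/J mice aged 18 to 20 months. B6CASTF1/J mice are first-generation hybrids of a C57BL/6J and a CAST/EiJ parent. The mice carried no treatment or engineered allele in the labels, and the series has a single group, in which 1 µg of total RNA went into each of 2 libraries. The labels number the libraries as biological replicates 1 and 2, but a donor entry is shared, and whether they come from separate animals is not settled, so the spread between them may be technical.

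The 21-hydroxylase sits in the endoplasmic reticulum of adrenal cortex cells and turns progesterone into the precursor of corticosterone and aldosterone. In people it is the step lost in the most common form of congenital adrenal hyperplasia. C4 is cleaved by the classical and lectin pathways of complement and becomes part of the enzyme that cleaves C3, and its main source is the liver. C4b is the mouse gene for this protein, and C4a, also known as sex-limited protein, is its copy. Tenascin X is a large protein of the extracellular matrix of connective tissue, and Stk19 is a nuclear protein named as a serine/threonine kinase.

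In mm10 coordinates the stretch begins with Tnxb on the plus strand (chr17:34670535-34719815). Then come the pseudogene Cyp21a2-ps (chr17:34719813-34722252) and C4b (chr17:34728380-34743882), both on the minus strand. The second unit holds Tnxa, a partial copy of Tnxb on the plus strand (chr17:34771395-34801623), Cyp21a1 on the minus strand (chr17:34801348-34804561), C4a on the minus strand (chr17:34809092-34823464) and Stk19 on the minus strand (chr17:34823993-34836945). The last 276 bp of Cyp21a1 lie opposite the end of Tnxa. Cyp21a1 and C4a are 4530 bp apart, and C4a and Stk19 are 528 bp apart. Cyp21a1, C4b, Tnxb and Stk19 are annotated as protein coding and C4a as a processed transcript.

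The copies are close enough in sequence that it matters where a read was placed. Exons 2 to 9 of Cyp21a2-ps line up with exons 3 to 10 of Cyp21a1, and over the 7 exon pairs of equal length 19 of 903 bases differ (97.9% identity). The eighth exon of Cyp21a1 (chr17:34802305-34802474) and its partner in the pseudogene (exon 7, chr17:34720347-34720516) show how the copies differ. They were read from the GENCODE M21 transcripts, on the minus strand, with the 4 differing bases in capitals. The substitution C10T, counted from the 5′ end of the exon, turns codon 311 of the 487 in the Cyp21a1 frame from CGA into the stop codon TGA.

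Cyp21a1 exon 8: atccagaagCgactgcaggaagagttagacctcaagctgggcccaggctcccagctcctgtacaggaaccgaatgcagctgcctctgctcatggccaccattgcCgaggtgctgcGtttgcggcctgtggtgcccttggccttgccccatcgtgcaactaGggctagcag
Cyp21a2-ps exon 7: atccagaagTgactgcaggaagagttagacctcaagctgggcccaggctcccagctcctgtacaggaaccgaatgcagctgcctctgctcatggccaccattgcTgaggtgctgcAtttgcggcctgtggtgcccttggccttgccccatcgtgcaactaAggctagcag

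The C4 genes are as alike. Over their last 6 exons 16 of 757 aligned bases differ and 1 base is a gap (97.8% identity), against 95.6% identity over the other 35 exons. Intron 39, the second intron from the 3′ end, is shown because many C4 reads keep it, as described further on. It is 284 bp long in C4a (chr17:34809609-34809892) and in C4b (chr17:34728898-34729181), with 8 differing bases, in capitals (97.2% identity). Both begin with GT and end with AG. In the C4b reading frame the retained intron meets the stop codon TAG after 47 codons, at intron base 141.

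C4a intron 39: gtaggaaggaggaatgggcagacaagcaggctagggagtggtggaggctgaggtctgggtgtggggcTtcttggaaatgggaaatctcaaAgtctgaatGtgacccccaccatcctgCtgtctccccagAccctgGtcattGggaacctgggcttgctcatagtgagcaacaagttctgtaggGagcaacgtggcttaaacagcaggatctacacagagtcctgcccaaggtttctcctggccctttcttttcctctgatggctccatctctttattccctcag
C4b intron 39: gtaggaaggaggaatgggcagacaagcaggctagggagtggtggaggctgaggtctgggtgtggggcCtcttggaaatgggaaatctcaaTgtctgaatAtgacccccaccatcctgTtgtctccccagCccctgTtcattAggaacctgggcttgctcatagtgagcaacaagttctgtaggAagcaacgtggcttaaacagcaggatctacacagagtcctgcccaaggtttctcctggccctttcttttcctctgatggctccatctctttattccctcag

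Cyp21a1 was the third most abundant gene of the gland, and the other members stood far below it. It held 22039 reads in replicate 1 and 16754 reads in replicate 2, or 15598 and 17939 CPM (counts scaled to equal totals of gene reads), with a mean of 16768 ± 1655 CPM (SD, n = 2). C4b held 179 and 171 reads, or 127 and 183 CPM, a mean of 154.9 ± 39.9 CPM that ranked 1344. C4a held 124 and 116 reads, or 87.8 and 124 CPM, a mean of 106 ± 25.8 CPM. The values nearly met: C4a in replicate 2 lay just under C4b in replicate 1. Stk19 held 63 and 62 reads, or 44.6 and 66.4 CPM, a mean of 55.5 ± 15.4 CPM. Tnxb had 1 read and 2 reads, which is at or under the 3 reads that a count of 0 allows in each library. The order was Cyp21a1, C4b, C4a, Stk19 and Tnxb in both libraries, and the steps between C4b, C4a and Stk19 were of the size of the spread between libraries. Since each read is 1 molecule, levels were not divided by transcript length. Long transcripts can be read whole less often. Most C4 reads did not span the whole transcript, and the part of length in that was not tested. In whole tissue, fewer cells of a type and less RNA per cell cannot be told apart.

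C4b took a like share of the reads of the C4 pair in both libraries. Of the reads of both genes it held 59.1% in replicate 1, with an interval of 53.3 to 64.7%, and 59.6% in replicate 2, where the interval was 53.7 to 65.3%. The intervals are exact 95% Clopper-Pearson intervals and, like all those below, cover counting error only. Reads of each gene were assigned by the authors between copies that differ at few bases, and how many were assigned to the wrong copy was not tested.

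All 5 members had a higher CPM in replicate 2, Tnxb on its 3 reads alone. With library totals scaled by the TMM method, 1373 of 11068 genes, or 12.4%, passed the exact binomial test between the libraries, and of the 4 members tested Cyp21a1 and C4b passed. Cyp21a1 was 1.12-fold higher in replicate 2 (interval 1.10 to 1.15; exact binomial test, adjusted p = 7.6e-28), but scaled to the ERCC spike-in RNAs it was lower there, at a ratio of 0.896. The C4b ratio was 1.41 (interval 1.14 to 1.75; exact binomial test, adjusted p = 0.015), and with spike-in scaling it was 1.13 and did not pass. On reads of annotated transcripts alone, few in number, the C4b ratio was 7.41. The ratios of C4a, 1.38 (interval 1.07 to 1.80; exact binomial test, adjusted p = 0.083), and of Stk19, 1.46 (interval 1.01 to 2.10; adjusted p = 0.17), did not pass. When the spread between these libraries was taken as the error in edgeR's exact test, the adjusted p was 1 for each of the 4 genes. The binomial test compares 2 libraries and not conditions.

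**Figure D1:**
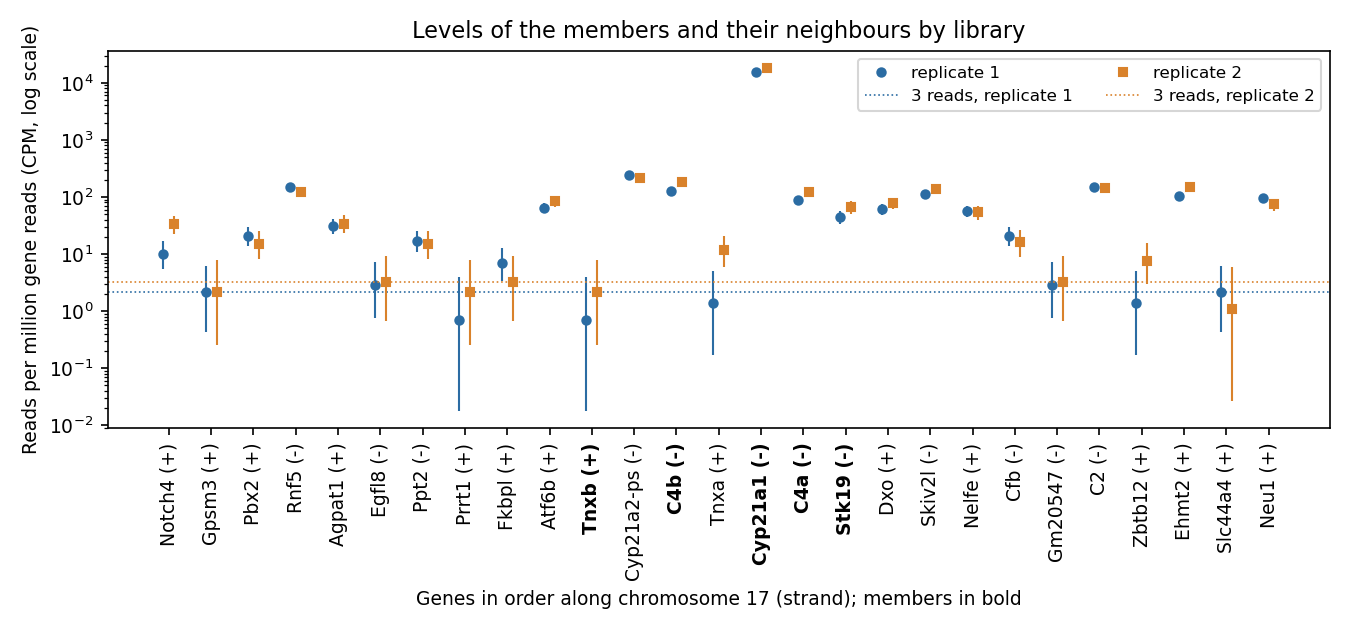
Level in CPM (log scale) in each library for the annotated genes with reads within 100 kb of the members, in order along chromosome 17, with exact 95% intervals and dotted lines at 3 reads. Cyp21a1 stands near 16768 CPM, C4b, C4a and Stk19 between 44.6 and 183 CPM, and Tnxb at or under the level of 3 reads.

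Cyp21a1 took 91.7% of the reads of annotated genes within 100 kb of the members in replicate 1 and 91.9% in replicate 2. The 24 coding genes with reads there had a median of 26.9 CPM. Cyp21a2-ps was the next most abundant, with 336 and 197 reads, or 238 and 211 CPM, a ratio of 0.867 (exact binomial test, adjusted p = 0.37). It made up 1.50% and 1.16% of the reads of the Cyp21 pair. Its annotated transcript took 97 and 45 of its reads (28.9% and 22.8%). How many reads of Cyp21a1 were placed on the pseudogene was not tested. Tnxa had 2 and 11 reads, an 8.14-fold difference (exact binomial test, adjusted p = 0.027) that rests on few reads. Other neighbours were C2, the complement protease that binds C4b (144 ± 4.16 CPM), Skiv2l, an RNA helicase of the exosome pathway (125 ± 18.6 CPM), and Rnf5, a ubiquitin ligase (136 ± 19.3 CPM). Ehmt2, a histone methyltransferase, had a ratio of 1.43 (exact binomial test, adjusted p = 0.029). Neu1, Atf6b, Dxo, Nelfe, Agpat1, Cfb, Pbx2 and Ppt2 lay between 85.4 and 16.0 CPM, and Fkbpl, Zbtb12, Egfl8, Gm20547, Gpsm3, Slc44a4 and Prrt1 between 5.14 and 1.42 CPM.

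Nearest to Cyp21a1 in level, by distance over log2 CPM in both libraries among 4377 genes with at least 100 reads, were Cyp11a1, Cyp11b1 and Star. Cyp11a1, which cuts the cholesterol side chain, stood at 18880 ± 538 CPM. Cyp11b1, which makes corticosterone, stood at 16966 ± 4854 CPM and Star, which brings cholesterol into mitochondria, at 10446 ± 2961 CPM. All 3 differed in direction or size from Cyp21a1 between libraries: their ratios were 0.939, 0.649 and 1.47, and each passed the exact binomial test (largest adjusted p = 6.9e-09). Of the 15 tested genes of glucocorticoid and mineralocorticoid synthesis, which include Cyp21a1, 4 were higher in replicate 2, 4 were higher in replicate 1 and 7 did not pass. Over all genes tested 12.4% passed, and the test covers counting error alone. The median log2 ratio of the 15 genes was 0.0074, against 0.0046 over all genes tested. Fdx1, the electron donor of the mitochondrial steroid enzymes, was 2.69-fold higher in replicate 2. Cyp17a1 had 0 and 4 reads. Spike-in scaling lowered the log2 ratios of all genes together, to a median of -0.32.

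The complement genes other than C4 were a mixed group. Of 22 tested, C4a and C4b included, 4 were higher in replicate 2, 2 were higher in replicate 1 and 16 did not pass. Over all genes tested 12.4% passed. The median log2 ratio of the 22 was 0.15. Cfd, the adipocyte-made protease of the alternative pathway, was the most abundant, at 2165 ± 88.0 CPM (ratio 0.923). C3, which the C4-containing enzyme cleaves, stood at 661 ± 57.5 CPM and Clu, an inhibitor of the terminal complex, at 203 ± 38.2 CPM. Cd59a, a membrane inhibitor of the same complex, stood at 168 ± 70.1 CPM. Masp1, a protease of the lectin pathway, stood at 29.0 CPM in replicate 1 and 81.4 CPM in replicate 2, a ratio of 2.74 (exact binomial test, adjusted p = 4.8e-06). Hc, Cfi, C8a, C8b and the mannose-binding lectins Mbl1 and Mbl2, all made mainly by liver, were among 9 of 38 listed genes with no read.

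Of 22 tested genes of the MHC class III stretch, 6 were higher in replicate 2, none was higher in replicate 1 and 16 did not pass, with a median log2 ratio of 0.16. The 6 include the members Cyp21a1 and C4b, already given above, and the other 16 include C4a and Stk19. The split is thus partly that of the members themselves. Over all genes 12.4% passed, of which 686 had more reads in replicate 2 and 687 in replicate 1 after scaling. The largest ratios were those of the near-identical heat shock genes Hspa1b, at 4.78, and Hspa1a, at 4.35, whose reads may be split between the copies. Notch4, a receptor of the vessel wall, had 14 and 31 reads (ratio 3.28). Of 8 tested genes of tenascins and fibrillar or elastic matrix, 2 were higher in replicate 2 (Col6a1, 129 ± 40.2 CPM, and Col1a1, 48.7 ± 18.9 CPM) and 6 did not pass. Col3a1 stood at 231 ± 19.7 CPM and Dcn at 141 ± 24.3 CPM, while Tnc had 14 and 8 reads, Tnr 1 and 2 reads and Fbn1 1 and 1 reads, the last 2 at or below the level of Tnxb. All these directions are for TMM scaling.

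Markers of the adrenal cortex and medulla were high and those of liver near 0. The 5 cortex markers summed to 49200 and 46300 CPM and the 5 chromaffin markers to 11991 and 9406 CPM, with 4 of the latter higher in replicate 1 and none in replicate 2. The 6 hepatocyte markers together had 11 and 5 reads, with Tat at 0. The 7 macrophage markers summed to 355 and 441 CPM, with 2 higher in replicate 2, and the 6 adipocyte markers to 4020 and 3431 CPM, with 4 higher in replicate 1. The 6 fibroblast and capsule markers summed to 510 and 496 CPM, with 1 higher in replicate 2. These counts use the exact binomial test, which covers counting error alone and which 12.4% of all genes tested passed. The part of these cell types in the library differences of C4b and Cyp21a1 was not tested.

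The members differed in how many of their reads matched an annotated transcript. Annotated transcripts took 80.5% and 75.1% of Cyp21a1 reads in replicates 1 and 2 and 58.7% and 38.7% of Stk19 reads. They took 8.87% and 9.48% of C4a reads and 2.23% and 11.1% of C4b reads. Over all annotated genes the shares were 77.2% and 73.2%, so both C4 genes lay far below. Most C4 reads were incomplete splice matches, which carry part of an annotated chain of introns: 68.5% and 50.9% for C4a, 71.5% and 56.7% for C4b. The rest were mainly new combinations of annotated splice sites. Genomic reads, those on models deposited under that class, made up 2.20% and 4.08% of Cyp21a1 reads, and 3.54% and 5.87% over all genes. For Cyp21a1 they were 485 and 684 reads, of which 484 and 684 lay on a single-exon model described further on. That model lies within the last exon and covers no intron, so it cannot show whether these reads came from spliced or unspliced Cyp21a1 RNA.

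**Figure D2:**
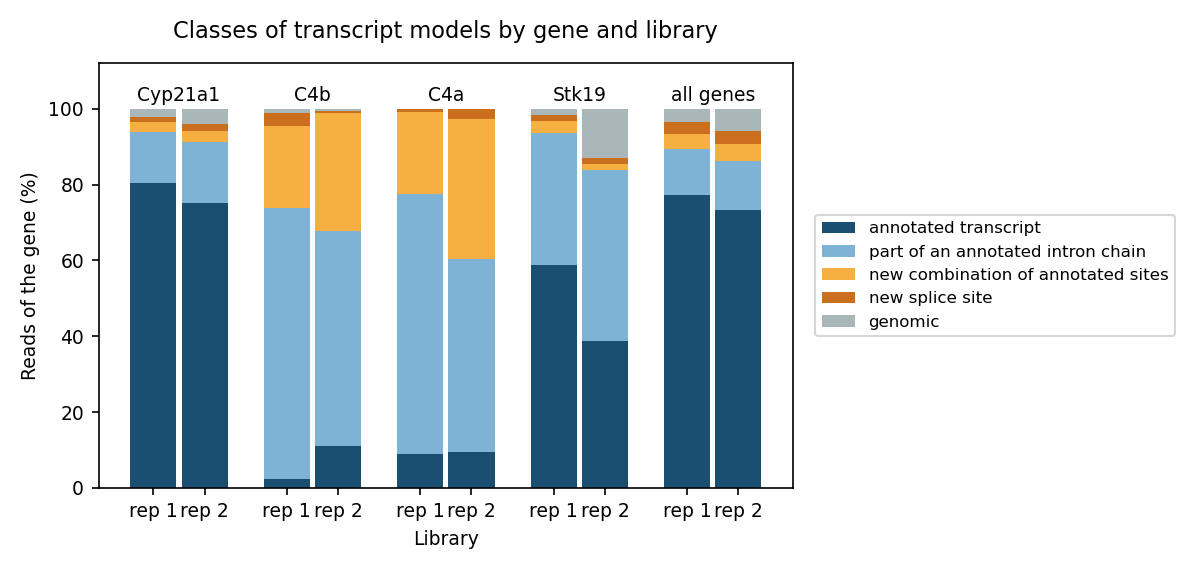
Share of each gene's reads (%) by class of transcript model, for each library, with the shares over all annotated genes at the right. Annotated transcripts make up 80.5% and 75.1% of Cyp21a1 reads but 11.1% or less of C4a and C4b reads.

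Most Cyp21a1 reads spanned its full chain of introns. They had a median of 10 exons, the full number. Their median model was 2058 nt, the annotated length, which does not measure the length of the reads. Cyp21a1-201 took 17747 reads in replicate 1, 80.5% of the gene (interval 80.0 to 81.0%), and 12577 reads in replicate 2, 75.1% (interval 74.4 to 75.7%). This share differed by -5.46 percentage points (Fisher's exact test, adjusted p = 2.1e-34), where 142 of 6413 genes, or 2.21%, passed the same test. Without incomplete and genomic models the share was 95.2% and 94.2%, a difference of -1.05 points (Fisher's exact test, adjusted p = 0.0063). The next chain, with introns 2 to 9 and a first exon that runs through intron 1, held 1046 and 1148 reads. Chains that began at intron 3 and at intron 4 held 557 and 455 reads and 327 and 289 reads. Over both libraries Cyp21a1 had 333 different intron chains, of which 124 were in both, and those 124 held 99.5% and 99.2% of its reads. Models of 1 read numbered 126 in replicate 1 and 118 in replicate 2.

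The C4 genes were read mostly at their 3′ end. Reads of at most 6 exons were 94.4% and 91.4% of C4a reads and 89.9% and 90.1% of C4b reads, out of 41 exons in the full transcript. The most used chain of both genes holds introns 36 to 40, and its model starts at the 5′ edge of exon 36. It held 74 and 45 reads of C4a and 106 and 74 reads of C4b. The difference in its share did not pass the test in C4a (59.7% and 38.8%; Fisher's exact test, adjusted p = 0.055) and in C4b (59.2% and 43.3%; adjusted p = 0.10). With chains kept apart unless both ends matched within 100 bp, C4a passed (Fisher's exact test, adjusted p = 0.027). Reads of more than 20 exons numbered 9 and 8 for C4b and 0 and 1 for C4a. The complete C4b-201, with 41 exons, was seen in 2 and 3 reads, and no read was spliced across the first intron of C4a.

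**Figure D3:**
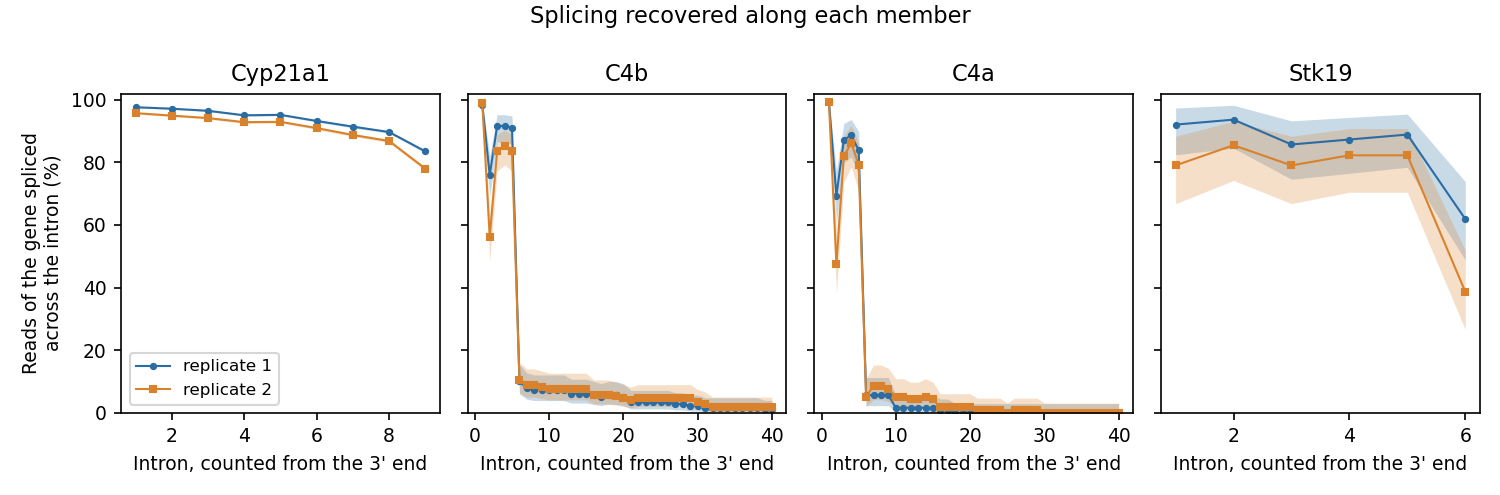
Share of each gene's reads (%) spliced across each annotated intron, counted from the 3′ end, in both libraries, with shaded exact 95% intervals. Cyp21a1 stays above 77% to its first intron, while C4a and C4b drop after the fifth intron from the 3′ end and dip at the second.

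Several 3′ models appeared in both C4 genes. A model of 5 exons that keeps intron 39 within an exon held 18 and 30 reads of C4a and 28 and 42 reads of C4b. A short annotated transcript that spans the last intron, C4a-206 in one gene and C4b-203 in the other, held 11 and 11 reads and 2 and 16 reads. Skipping of exon 39, which is 84 bases long and so keeps the frame, was seen in 4 and 8 reads of C4a and 2 and 5 reads of C4b. Others were seen in 1 gene, such as a donor 32 bases before the end of exon 38 of C4b, in 6 and 2 reads. The genes are alike here, and the assignment of reads between them was not tested.

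Of the introns that most C4 reads cover, intron 39 was the one most often kept. Of the reads that cover it, 23 of 113 C4a reads kept it in replicate 1 (20.4%, interval 13.4 to 29.0%), against 41 of 104 for replicate 2 (39.4%, interval 30.0 to 49.5%). C4b gave 41 of 179 reads (22.9%, interval 16.97 to 29.8%) and 68 of 170 reads (40.0%, interval 32.6 to 47.8%). The neighbouring introns 36, 37, 38 and 40 were kept by at most 4.52% of covering reads in either gene and library. Introns further 5′ have few covering reads, and in C4a some of them were kept as often: intron 34 in 5 of 12 and 4 of 14 reads, and intron 35 in 2 of 12 and 3 of 14 reads. The share was higher in replicate 2 for both genes, and no test was run on this difference. A further count, chosen after seeing the data, took only exons flanked by exons on both sides. By it C4a had 20.4% (interval 13.2 to 29.2%) and 42.7% (interval 32.7 to 53.2%). C4b had 20.9% (interval 15.1 to 27.8%) and 35.1% (interval 27.5 to 43.4%) by that count.

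Cyp21a1 kept few introns. Intron 1 was held in an exon by 6.45% of covering reads in replicate 1 and 9.69% in replicate 2, intron 4 by 2.28% and 2.37%, and the other introns by at most 1.05%. Counting only exons flanked by exons on both sides, intron 4 was held in 0.747% and 0.910%, close to intron 3 at 0.716% and 1.09%. All 9 shares were higher in replicate 2, and so was the share of genomic reads over all genes; the part of the latter was not tested. The value for intron 1 comes mainly from the chain of introns 2 to 9, whose model begins at an annotated start rather than where each read began. Without that chain, intron 1 was held by 1.25% and 2.04% of covering reads. Reads that end within exon 2 and reads that keep intron 1 share that model and cannot be told apart.

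**Figure D4:**
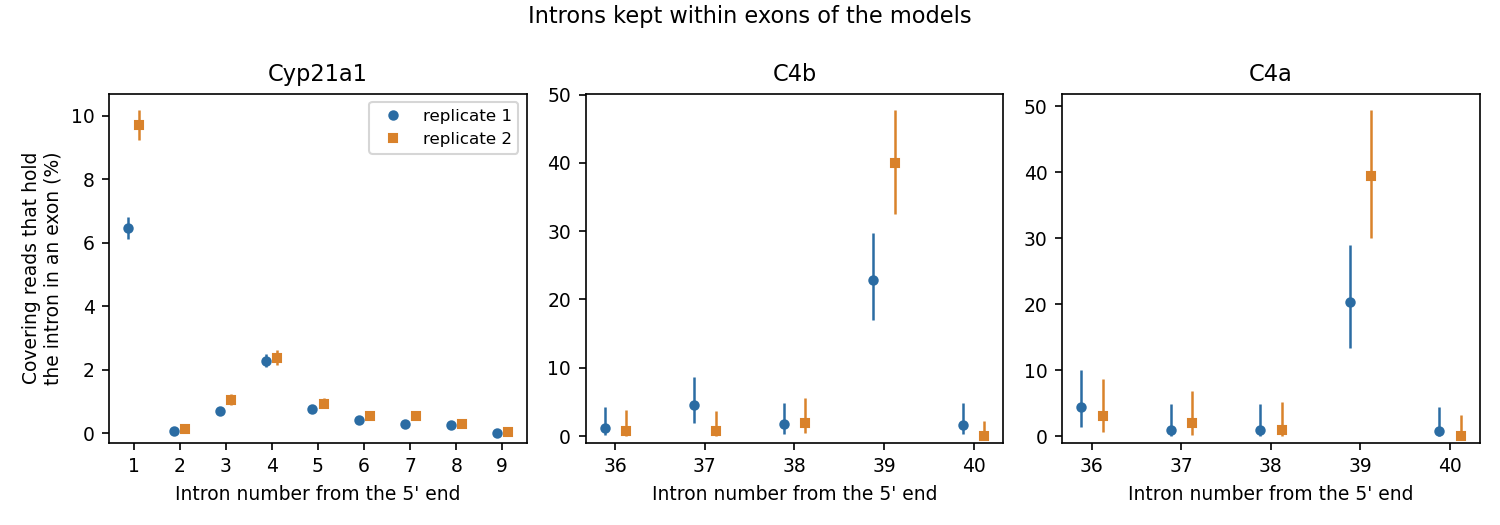
Share of covering reads (%) whose model holds each intron inside an exon, with exact 95% intervals, for all introns of Cyp21a1 and the last 5 introns of C4b and C4a. Intron 39 reaches 20.4 to 40.0% in the C4 genes, and intron 1 leads in Cyp21a1 at 6.45 and 9.69%.

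Beyond the annotated chain, Cyp21a1 used a set of other splice sites at low but repeated levels. Its models held 117 introns other than those of Cyp21a1-201, of which 44 were in both libraries and 12 had at least 10 reads in each. The most used takes an acceptor 18 bases before exon 4, in 103 and 86 reads (0.467% and 0.513%), and adds 18 bases, a multiple of 3. Skipping of exon 2, 90 bases and in frame, was seen in 82 and 90 reads. An acceptor 25 bases into exon 2 was used in 81 and 78 reads and shifts the frame. An acceptor 51 bases into exon 7 was used in 86 and 43 reads and keeps it. Skipping of exon 4, 96 bases and in frame, was seen in 54 and 42 reads. An annotated acceptor 5 bases into exon 5 was used in 53 and 61 reads. Both inner acceptors can be seen in the exons themselves (chr17:34804044-34804133 and chr17:34802671-34802871, minus strand), where the capitals mark the bases left out and end with AG.

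Cyp21a1 exon 2: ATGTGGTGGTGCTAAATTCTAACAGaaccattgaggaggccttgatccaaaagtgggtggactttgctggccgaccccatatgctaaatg
Cyp21a1 exon 7: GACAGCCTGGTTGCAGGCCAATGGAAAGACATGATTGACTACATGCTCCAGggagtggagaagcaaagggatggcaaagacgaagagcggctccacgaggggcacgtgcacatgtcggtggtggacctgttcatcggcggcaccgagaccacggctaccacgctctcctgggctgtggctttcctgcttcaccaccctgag

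The last exon of Cyp21a1 held sites from which reads ran on to other places. A 355 bp intron within exon 10 (chr17:34801439-34801793), which removes the annotated stop codon, was spliced in 33 and 25 reads. Its donor and acceptor are printed with exon bases in capitals and intron bases in lower case, and it begins with GT and ends with AG. The same donor was joined in 30 and 9 reads to an exon downstream of the gene, on the strand opposite Tnxa, by the intron chr17:34800870-34801793. A donor 40 bases further upstream was joined to the same place in 11 and 4 reads. In all, 48 reads of Cyp21a1 from replicate 1 (0.218%, interval 0.161 to 0.289%) and 21 from replicate 2 (0.125%, interval 0.0776 to 0.192%) had a downstream exon within Tnxa. In replicate 2, 4 reads, each a model of its own, were spliced from exon 10 on to the 5′ part of Tnxa, and 2 of them went on past its start. No such read was found in replicate 1.

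Donor in exon 10 (chr17:34801779-34801808): CGCCCCAAGACCAGGgtgagcgtccttgac
Acceptor in exon 10 (chr17:34801424-34801453): accctgctcctgtagGTGACTCCCAGGGTC
Upstream donor in exon 10 (chr17:34801819-34801848): ATTCCTCCTTTCCAGgtgcggctgcagccc

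At its 3′ end Cyp21a1 overlaps Tnxa on the other strand. In replicate 1, 1 deposited model with 1046 reads (4.75%, interval 4.47 to 5.04%) had a last exon that ran past the annotated end without an intron. It is the model of the chain of introns 2 to 9 given above, and its end need not be where each read ended. In replicate 2 the same chain held 1148 reads, and 0 reads were on a model with such an end. A single-exon model of 276 bp that ends exactly where Tnxa ends (chr17:34801348-34801623) held 484 reads in replicate 1, or 2.20% of the gene (interval 2.01 to 2.40%), and 684 reads in replicate 2, or 4.08% (interval 3.79 to 4.39%). Of the Cyp21a1 models, 88.5% in replicate 1 and 89.6% in replicate 2 had their 5′ end at an annotated boundary. The edge of this model need not be where each of its reads began. The strand of the reads on this single-exon model is that of the model as deposited, and their assignment to Cyp21a1 rather than Tnxa was not tested. Models on the opposite strand that overlap Cyp21a1 held at most 2 reads each. An exon upstream of the gene was joined to exon 1 in 22 reads of replicate 1 (0.0998%) and 8 reads of replicate 2 (0.0477%), mostly by an intron of 380 bp (16 and 8 reads).

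A small number of Cyp21a1 reads joined the gene to the other duplicated unit. Introns from Cyp21a1 to the copy around Cyp21a2-ps were found in 23 reads of replicate 1 (0.104%, interval 0.0662 to 0.157%) and in 22 of replicate 2 (0.131%, interval 0.0823 to 0.199%). The most used, chr17:34719443-34801438, had 16 and 15 reads. It is 81996 bp long, and the distance is 81958 bp between matching exon ends of Cyp21a1 and Cyp21a2-ps at exons 8 to 10. It starts at the exon base that follows the acceptor within exon 10, and it lands downstream of the annotated end of the pseudogene, opposite the 3′ part of Tnxb. Another, from within exon 8 to the pseudogene's exon 8, is 82034 bp long and was seen in 2 and 2 reads. The sequence at the landing site was not analysed here, and the part of read placement between the copies was not tested.

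**Figure D5:**
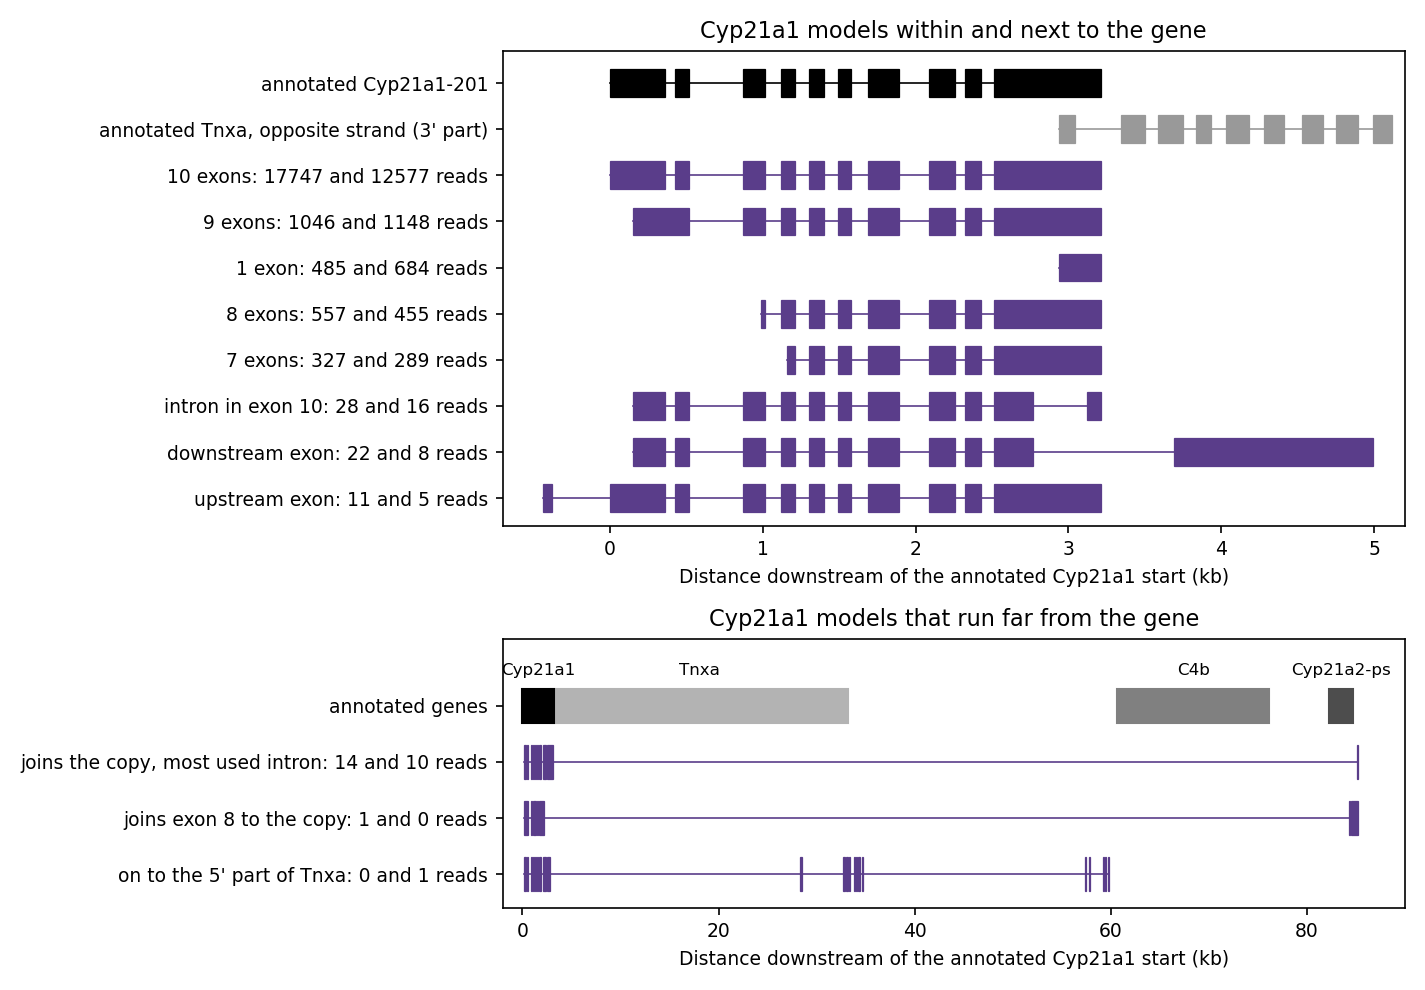
Exons (boxes) and introns (lines) of Cyp21a1 models by distance downstream of the annotated start (kb), with reads in replicates 1 and 2 of each intron chain. The upper panel shows the main chains and those with exons next to the gene beside the annotated Cyp21a1 and Tnxa, and the lower panel shows chains that run far from the gene, the most used joining one with 14 and 10 reads.

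By overlap with a neighbour's exons, models that reach from one gene into another held 6 reads in replicate 1 and 11 reads in replicate 2, so such models were rare. Only 1 of these models had more than 1 read. It was a chain of 11 exons named Cyp21a1 with 3 reads in replicate 2, which lies wholly outside the gene at chr17:34744753-34771456 across the pseudogenes Stk19-ps1 and Skiv2l-ps1. The others had 1 read each. In replicate 1 they were 3 models from Cyp21a1 into Cyp21a2-ps, 1 from Cyp21a1 into C4b, 1 from C4b into C4a across an intron of 80788 bp, and a Stk19 model of 14 exons that goes on upstream into Skiv2l. In replicate 2 they included 3 from Cyp21a1 into Cyp21a2-ps, 1 from Cyp21a2-ps into Cyp21a1, and 1 Cyp21a1 model that starts within Stk19. Another, of the genomic class and named C4b, covers the last exon of Cyp21a1 but has no exon in C4b. The whole of C4b lies within its intron, chr17:34719630-34801336. Counting any exon more than 50 kb outside the gene gave 25 and 28 reads, since the recurrent joining intron ends beside the pseudogene's exons and not in them.

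Stk19 had few reads, of which the full chain was the most used. Stk19-201 held 36 of 63 reads in replicate 1 (57.1%, interval 44.0 to 69.5%) but 23 of 62 for replicate 2 (37.1%, interval 25.2 to 50.3%), and the difference did not pass (Fisher's exact test, adjusted p = 0.33). The chain that lacks only the first intron held 14 and 21 reads, and single-exon models held 3 and 8 reads. Of the 10 Stk19 introns outside the annotated main chain, 1 was in both libraries. The 3 Tnxb reads shared no chain: 1 read of 10 exons with new splice sites in replicate 1, and in replicate 2 reads of 16 and 12 exons, the latter ending at the annotated 3′ end.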

How the data were processed

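Full-length cDNA of adrenal gland RNA was sequenced by a long-read method in 2 libraries, and the authors deposited for each a table of read counts per transcript model with a matching annotation of the models' exons. Values were whole-number counts of reads, not normalised. Per the text file deposited beside the tables, the genome was mm10 and the annotation GENCODE M21. The aligner, the model-building program and its filters are not given in the sources used here. Reads from the CAST/EiJ chromosome were placed on a C57BL/6J-based reference, and the effect of that was not tested.

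Reads were summed per gene and scaled to the library's reads on annotated genes (CPM). Each library had 1412947 and 933963 such reads, so 1 read was 0.708 and 1.07 CPM, and 3 reads, the limit that a count of 0 allows, were 2.12 and 3.21 CPM. Gene reads were compared between libraries by a two-sided exact binomial test with TMM-scaled totals (edgeR 4.0.16 in R 4.3.3) for genes with at least 10 reads. Shares of reads on a gene's main intron chain were compared by Fisher's exact test wherever both libraries had 20 or more reads of the gene. Both were adjusted by Benjamini-Hochberg over all genes tested, with a threshold of 0.05, in Python 3.11.15 with scipy 1.17.1 and statsmodels 0.14.6. These tests cover counting error alone and compare 2 libraries, not conditions. The scripts were tested on simulated data. Shares carry exact Clopper-Pearson 95% intervals.

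Named were the members, their neighbours within 100 kb with reads, up to 4 genes with the highest mean CPM of each list and list genes past the binomial test and at least 2-fold apart between libraries, and the 3 genes nearest to Cyp21a1 in both libraries. Of the models, those with the most reads per member and those that reach into a neighbour were described. Models outside that rule (alternative splice sites, exons beyond the gene) were chosen after their values were seen. Members, lists and tests were chosen with earlier results of these data known. Alternatives were DESeq2 1.42.0 size factors, total and spike-in scaling, other read minimums, subsets of model classes, edgeR's exact test and each library alone.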

Additional observations from a re-analysis of the deposited data

Results flagged for a closer look

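Gene models that the annotation does not contain carried 34 reads in replicate 1 and 48 reads in replicate 2 within 100 kb of the members. They drew attention because they lie outside the annotated genes that the comparisons use and exceed the limit of 3 reads that a count of 0 allows. On the strand of Cyp21a1 within the span of Tnxa, 4 such models held 10 reads in replicate 1 and 3 models held 13 reads in replicate 2. The series has no control samples, so no background level could be set beside these reads.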

How the results depend on the processing

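Spike-in scaling took the count of genes past the binomial test to 2471, of which 10.6% were higher in replicate 2, moved the median log2 ratio of all genes to -0.32 and turned the Cyp21a1 ratio to 0.896 (exact binomial test, adjusted p = 1.4e-24). It left the C4b ratio at 1.13, with an adjusted p of 0.505 in that exact test. With the spread between the libraries as error (edgeR's exact test, common dispersion), 27 genes passed and the Cyp21a1 ratio of 1.12 and the C4b ratio of 1.41 had an adjusted p of 1. Without incomplete splice matches and genomic models, which is the same set of models as annotated and new spliced ones, 53 genes passed the isoform test and the main isoform held a mean of 94.7% of Cyp21a1 reads. In that subset the main chain of C4a and of C4b is another one, with a difference of 6.48 and 0.391 percentage points. Keeping chains apart unless both ends matched within 100 bp gave 377 genes, and the C4a difference then passed (Fisher's exact test, adjusted p = 0.027). Reads on models that reach into a neighbour numbered 17, or 3 when models of 1 read were left out, 53 by an exon more than 50 kb outside the gene (a definition chosen after seeing the data), and 6 to 11 in each library alone. The mean share of covering reads that hold Cyp21a1 intron 1 fell to 1.65% without the chain of introns 2 to 9, a setting also chosen after seeing the data. On annotated transcripts alone C4a stood at 13.1 CPM, C4b at 15.7 CPM and Stk19 at 34.5 CPM, and the C4b ratio was 7.41. Of the values under all alternatives, 100 kept their direction, call or size, 13 moved, 5 reversed, 6 lost and 3 gained a call or count. The 100 overstate the agreement. For levels and shares, each library alone always lies within the SD of the mean of 2, so it kept its size by arithmetic. The subset of annotated and new spliced models was also counted under 2 names. No paired analysis was possible because the study has 1 group. The depth of replicate 2 and the few reads of Tnxb, Stk19 and full-length C4 limit what could be compared.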
